A study of Mus musculus with 18 samples.

Results

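The genes described here make melanin and build the melanosome, the organelle that holds the pigment, in the retinal pigment epithelium (RPE) of young and old mice. They are Tyr, Tyrp1, Dct, Pmel, Oca2, Slc45a2, Slc24a5, Mlana, Gpr143 and Rab38, matched by gene symbol, and all 10 were found among the 21859 genes of the count table. All 10 passed the filter on low counts, which left 15944 genes, and the lowest count of any of them in any library was 207 reads.

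The 18 libraries fell into 4 groups of mouse RPE. Young (7 libraries) and Old (4 libraries) were untreated RPE of young and aged mice. Old-Control (3 libraries) was aged RPE given AAV2-tTA, an adeno-associated virus that carries the tetracycline transactivator alone. Old-OSK (4 libraries) was aged RPE given AAV2-tTA;TRE-OSK, in which the transactivator drives Oct4, Sox2 and Klf4 from a tetracycline response element. Strain, age in months, the time after injection and the promoter of the transactivator were not given in the sources used here. Nothing there says whether libraries came from separate animals, so the p-values below measure the spread between these libraries, which may be technical in part.

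Melanin is made inside melanosomes from tyrosine. Tyrosinase (Tyr) carries out the rate-limiting oxidation, dopachrome tautomerase (Dct) and tyrosinase-related protein 1 (Tyrp1) act on later intermediates, and Pmel forms the amyloid fibrils on which pigment is laid down. The RPE of the mouse makes most of its pigment early in life and keeps its melanosomes for a long time, where they absorb stray light and bind metals. MITF, the transcription factor that is central to this pathway, binds E-boxes, and the longer form of that site in pigment genes is called the M-box.

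The promoters of 5 of the 10 genes were available from RefSeq (GRCm38.p6). They are shown because the best known shared site of this pathway stands in most of them. Capitals mark TCATGTG, or CACATGA where it reads on the other strand, and for Oca2 the shorter CACATG. Each run is given on the strand of its gene.

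Tyr: gaaaaagttagTCATGTGctttgcagaag
Tyrp1: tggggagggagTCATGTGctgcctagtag
Dct: tgcacttagggTCATGTGctaacaaagag
Dct, upstream copy: cttggctgggaCACATGAgcccaataaag
Slc24a5: aggagactgctCACATGAttcagcataag
Oca2: tgagcttgctaCACATGgctggaatttt

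The Tyr run lies at chr7:87493517-87493545 on the minus strand, and its motif begins 22 bases before the annotated start of the gene. The Tyrp1 run lies at chr4:80834155-80834183 on the plus strand, 47 bases before the RefSeq start. The Dct runs lie at chr14:118052380-118052408 and chr14:118052461-118052489 on the minus strand, 151 and 232 bases before the start. The Slc24a5 run lies at chr2:125068103-125068131 on the plus strand, 13 bases before the start, and the Oca2 run at chr7:56239562-56239589 on the plus strand, 186 bases before the start. The 7 letters TCATGTG stood, on either strand, in the 250 bases upstream of 3.25% of all 32817 promoters in the table, and the 6 letters CATGTG in 12.3%. The 11-base form, with AG before TCATGTG and CT after it, was found upstream of Tyr and of Tyrp1 and in 0.0213% of all promoters. The GENCODE start of Tyrp1 lies 90 bases upstream of the RefSeq start, so its motif falls inside the longer gene model. A match of letters is a description and was not tested as a binding site.

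Depth was similar between groups, with 18104828 to 32348136 counted reads per library. As a check of the label, a list of 12 RPE markers summed to between 46679 and 76494 CPM (the read count per library size, scaled by the trimmed mean of M-values) in the Young libraries, with Rpe65, the isomerase of the visual cycle, at 3798 to 7341 CPM. Best1, also on that list, was at 0.40 to 2.57 CPM throughout. The sum was 30394 to 54662 CPM in Old, 22965 to 71549 in Old-Control and 17048 to 33584 in Old-OSK. The Old replicate 4 and Old-Control replicate 2 libraries were the lowest of their groups and lay within the Old-OSK range. A list of 12 rod photoreceptor markers summed to 458 to 3470 CPM in Young, 2466 to 8299 in Old, 1931 to 20560 in Old-Control and 3245 to 17315 in Old-OSK, with the highest value in Old-Control replicate 2. For the 10 genes, results that rest on these libraries are given with and without them. Of 8 markers of melanocytes, the pigment cells of the neighbouring choroid, Pax3 was near the floor at 3 to 30 reads per library. The list summed to 308 to 452 CPM in Young, 246 to 342 in Old, 172 to 340 in Old-Control and 194 to 337 in Old-OSK. Sox10 made up much of that sum, at 67.7 to 287 CPM. The part of melanocyte RNA in the levels below was not tested.

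Levels can be set against each other only per length, so CPM was divided by the exonic length of each gene in kilobases. In Young RPE the order was Dct (601 ± 137 CPM per kb, SD, n = 7), Tyrp1 (308 ± 63.8), Pmel (284 ± 91.8), Mlana (164 ± 53.9), Slc24a5 (100.3 ± 7.16), Oca2 (96.5 ± 12.7), Tyr (84.1 ± 5.53), Gpr143 (34.9 ± 8.41), Slc45a2 (15.8 ± 1.70) and Rab38 (14.1 ± 5.54). The steps from Dct to Tyrp1, from Tyr to Gpr143 and from Gpr143 to Slc45a2 were clear of any overlap between libraries. Every other pair of neighbours in the order overlapped. By these ranges alone, the order of Tyrp1, Pmel, Mlana, Slc24a5, Oca2 and Tyr is not resolved at each step. The place of Slc24a5 has a further limit: 921 of its 2330 exonic bases overlap those of the antisense gene Myef2, and how reads there were counted is not known. Overlap of ranges leaves out that the genes share libraries, and their order within each library is not given here. Dct stayed highest in each group, at 417 ± 59.5 in Old (n = 4), 335 ± 91.5 in Old-Control (n = 3) and 390 ± 47.4 CPM per kb in Old-OSK (n = 4). With the longest GENCODE transcript as the length, Dct was also highest in all 4 groups.

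**Figure D1:**
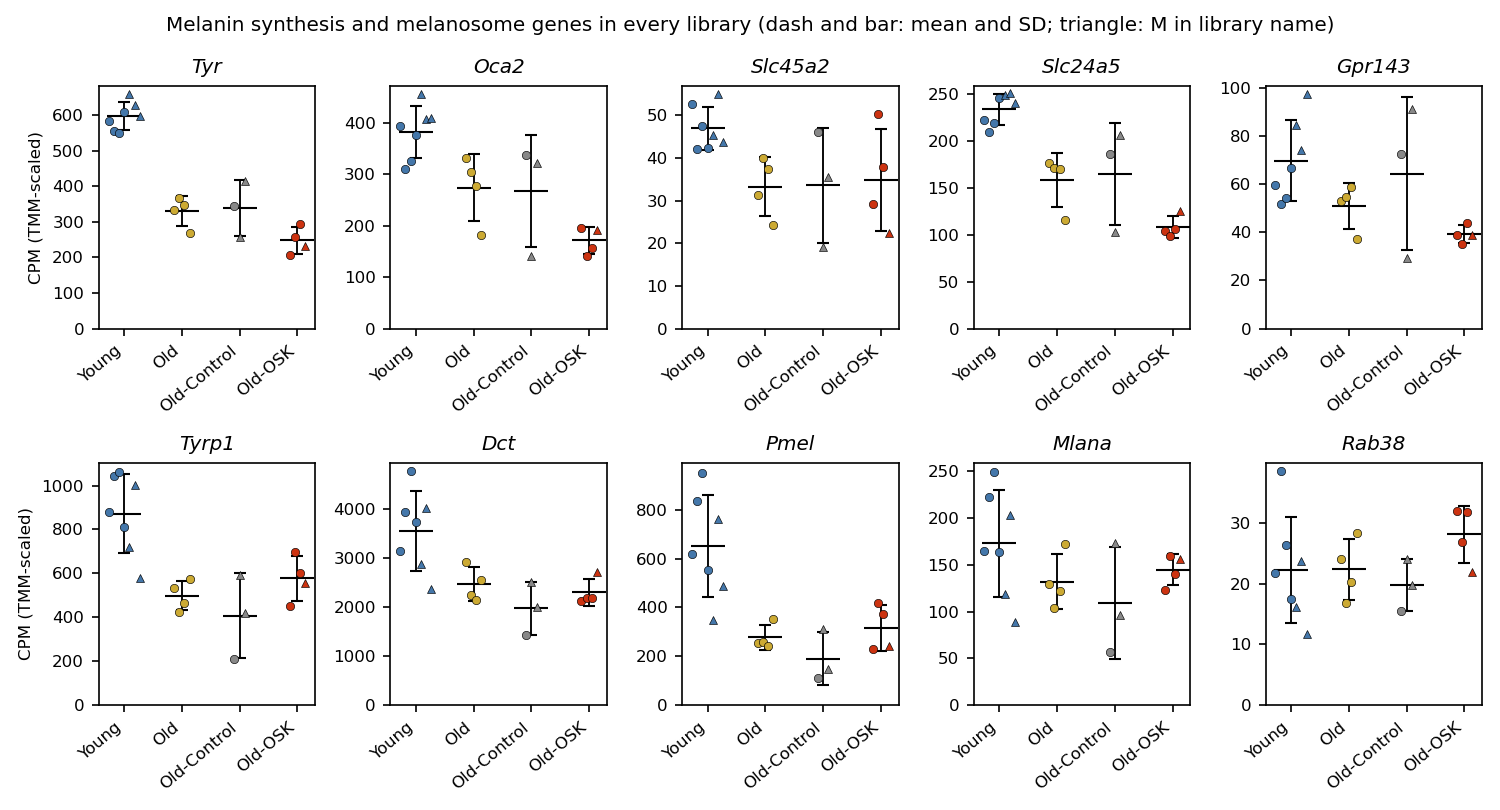
CPM of each gene (vertical axes, from 0) in every library of the 4 groups, with the mean (dash) and SD (bar); triangles are libraries with the letter M in their name. Tyr, Tyrp1, Slc45a2 and Slc24a5 in Old lie below every Young library, and Old-Control spans a wide range for most genes.

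The comparison of Old with Young sets untreated aged RPE against untreated young RPE. The groups also differ in a letter in their library names, given below, so the comparison does not isolate age. Of the 10 genes, 4 fell and none rose: Tyr, Tyrp1, Pmel and Slc24a5. Over all genes tested, 9.56% were called in this comparison, 4.16% lower and 5.4% higher (edgeR's quasi-likelihood test, adjusted p under 0.05). Of those calls 56.5% were higher, and 76.4% were with libraries scaled by total counts. At an unadjusted p under 0.05, 7 of the 10 passed, all lower, against 13.4% of all genes. The log2 fold change was below 0 for 9 of the 10, with a median of -0.51 against -0.0044 over all genes, and for 4 genes every Old library lay below every Young library, as did 5.61% of all genes. In bulk RNA, fewer cells of a type and less RNA per cell cannot be told apart.

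Tyr, the tyrosinase gene (GRCm38 chr7:87424771-87493512, minus strand, up to 5 exons), had 551 to 660 CPM in Young, with a median of 599. It had 335, 367, 349 and 269 CPM in the Old libraries. All 4 Old libraries lay below all 7 Young ones. The change was -0.86 on the log2 scale (SE 0.13, adjusted p = 0.00131, edgeR), which left 55.2% of the Young level. It stayed called when each of the 11 libraries was left out in turn, with adjusted p from 0.00183 to 0.00689.

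Tyrp1, whose product oxidises a late indole intermediate and steadies tyrosinase (chr4:80834123-80851719, plus strand, up to 8 exons), had 579 to 1063 CPM in Young, with a median of 878. In Old it had 532, 422.5, 466 and 574 CPM, all below the lowest Young library, though only by a few CPM for the highest. The change was -0.81 (SE 0.23, adjusted p = 0.0398, edgeR). It was called in 3 of the 11 fits that left out 1 library, with an adjusted p of 0.103 without Old replicate 2. Dct, the tautomerase (chr14:118012790-118052244, minus strand, up to 8 exons), had 2361 to 4772 CPM in Young, with a median of 3727, and 2916, 2240, 2137 and 2548 CPM in Old. The groups overlapped, and the difference of -0.53 (SE 0.19, adjusted p = 0.0865, edgeR) did not pass.

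Pmel, the fibril protein (chr10:128704195-128720238, plus strand, up to 11 exons), had 347 to 949.9 CPM in Young, with a median of 617. In Old it had 255, 257, 243 and 354 CPM. Only Old replicate 4 reached into the Young range, above Young replicate 5. Its change was the largest of the 10 at -1.23 (SE 0.30, adjusted p = 0.0229, edgeR), which left 42.6% of the Young level. It was called in 9 of 11 fits without 1 library and had an adjusted p of 0.0652 without Old replicate 2. Pmel shares 34 exonic bases with Cdk2 and 105 with Dgka, both on the opposite strand. Mlana, a small membrane protein that binds Pmel (chr19:29697824-29708634, plus strand, up to 5 exons), had 88.4 to 249 CPM in Young and 104 to 173 CPM in Old. Its difference of -0.39 (adjusted p = 0.381, edgeR) lay within the spread of the Young libraries.

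The transporters set the pH and ion content of the melanosome. Slc24a5, a sodium, calcium and potassium exchanger (chr2:125068124-125088677, plus strand, up to 9 exons), had 209 to 251 CPM in Young, with a median of 241. It had 177, 171, 171 and 116 CPM in Old. All Old libraries lay below Young, with Old replicate 4 far below the other 3. The change was -0.56 (SE 0.16, adjusted p = 0.0364, edgeR), called in 3 of 11 fits without 1 library, and without Old replicate 4 it was -0.43 with an adjusted p of 0.164. Its exons overlap those of the antisense gene Myef2 over 921 of 2330 bases, and the library kit does not mark strand, so reads there cannot be assigned. Myef2 itself fell by 0.41 (adjusted p = 0.0184, edgeR). Oca2, needed for a chloride current of the melanosome (chr7:56239760-56536518, plus strand, up to 25 exons), had 309.9 to 455.5 CPM in Young and 331, 305, 277 and 182 CPM in Old. Its difference of -0.48 (SE 0.21) did not pass (adjusted p = 0.135, edgeR). Slc45a2, a membrane transporter needed for normal melanosome pH (chr15:11000721-11029233, plus strand, up to 7 exons), had 42.1 to 55.1 CPM in Young and 31.4, 39.9, 37.3 and 24.3 CPM in Old. Every Old library lay below every Young library, yet the difference of -0.50 (SE 0.22) did not pass (adjusted p = 0.149, edgeR).

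Gpr143, the melanosomal receptor mutated in ocular albinism (chrX:152781921-152808646, plus strand, up to 9 exons), had 51.5 to 97.3 CPM in Young and 37.1 to 58.6 CPM in Old, a difference of -0.46 (adjusted p = 0.223, edgeR). Rab38, a small GTPase that carries tyrosinase and Tyrp1 to the melanosome (chr7:88430273-88491572, plus strand, up to 3 exons), had 11.6 to 38.6 CPM in Young and 16.7 to 28.3 in Old. Its estimate of 0.00 has a 95% interval from -0.52 to 0.53, so a change of up to that size in either direction is not resolved. Its sign changed in 6 of the 11 fits that left out 1 library.

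The RPE marker list moved with these results: 11 of its 12 genes had values below 0 in Old against Young, with a median of -0.35, and none was called. Immune markers moved more: 6 of 8 were called higher, with a median of 1.96, among them Lyz2 (3.32, adjusted p = 2.33e-06), Tyrobp (2.89, adjusted p = 1.92e-05) and C1qa (2.32, adjusted p = 0.000135) (edgeR). The immune list summed to 473 to 672 CPM in Young and 646 to 1097 CPM in Old. Csf1r, also on that list, made up much of this sum, with a median of 475 CPM in Young and 430 CPM in Old. It was the only 1 of the 8 below 0, at -0.34 (adjusted p = 0.396, edgeR), so the sum does not show the size of the rise in the others. Called lower were 2 of 8 melanocyte markers (Ednrb and S100b, -1.07), 1 of 7 Müller glia markers (Gfap, -1.24) and 2 of 7 stroma markers (Col1a2, -1.08, and Pdgfrb, -0.67). Each of these lists also held values above 0 that were not called. They were Erbb3 (1.71, adjusted p = 0.0702, edgeR) and Mc1r (0.76) among melanocyte markers, Kcnj10 (0.21) among Müller glia markers and Lum (0.54) among stroma markers. The part of these cell types in the result was not tested. Scaling each library by the RPE markers in place of all genes left Tyr at -0.51 (adjusted p = 0.231), Pmel at -0.87 (adjusted p = 0.377), Tyrp1 at -0.44 (adjusted p = 0.566) and Slc24a5 at -0.23 (adjusted p = 0.492), with none of the 10 called (edgeR). Without Old replicate 4 alone, when 2.47% of all genes were called, 2 of the 10 were: Tyr (-0.77, adjusted p = 0.00689) and Pmel (-1.37, adjusted p = 0.0459) (edgeR). Tyrp1 (adjusted p = 0.0953) and Slc24a5 (adjusted p = 0.164) were not (edgeR). A fit without both Old replicate 4 and Old-Control replicate 2 was a choice made after seeing the data. It called the same 4 of the 10 genes as the main fit, and 3.89% of all genes. The 4 were Tyr at -0.75, Tyrp1 at -0.86, Pmel at -1.36 and Slc24a5 at -0.42. Old-Control replicate 2 is in neither group compared here and enters only through the shared fit. Old held no library with the letter M in its name, a mark whose meaning the sources used here do not give, and Young held 3. With M as a term in the fit, Tyr (adjusted p = 0.00499) and Pmel (adjusted p = 0.0359) were called, against 3.76% of all genes (edgeR). With the level of the rod markers as a term, Tyr (-0.73) and Pmel (-1.49) were called, against 2.97% of all genes (edgeR).

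**Figure D2:**
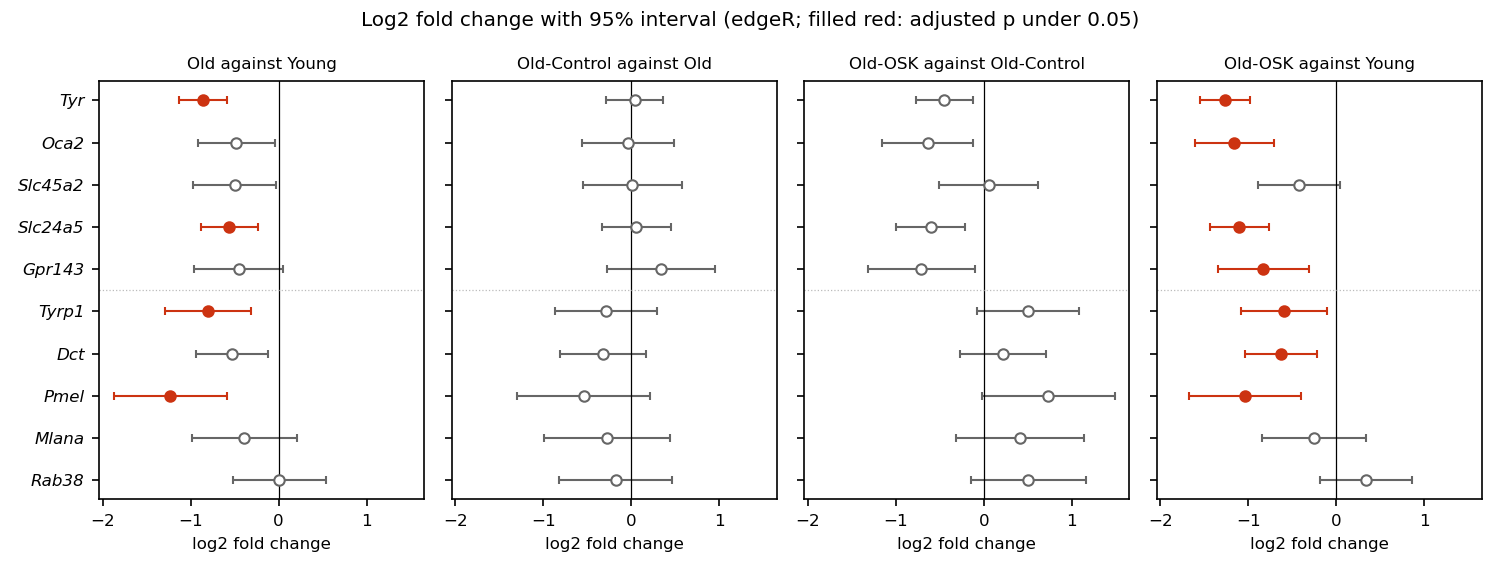
Log2 fold change (horizontal axes) with its 95% interval for each gene in the 4 comparisons; filled red points have an adjusted p under 0.05 in edgeR. Filled points stand in Old against Young (4 genes) and Old-OSK against Young (7 genes), all to the left of 0, and none stand in the other panels.

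Old-Control was compared with Old, which was given no vector. The letter M stood in the names of 2 of the 3 Old-Control libraries, replicate 2 among them, and of 0 of the 4 Old libraries. The comparison thus does not isolate the vector. None of the 10 genes was called, and none of all 15944 genes was (0%). DESeq2 also called none of the 10, and at an unadjusted p under 0.05 none of the 10 passed, against 3.74% of all genes (edgeR). Values ran from -0.54 for Pmel to 0.34 for Gpr143. The 95% interval for Tyr was -0.28 to 0.36 and that for Pmel -1.29 to 0.21, so the small group leaves room for sizeable changes. The 3 Old-Control libraries differed widely among themselves: Pmel had 111, 312 and 149 CPM in replicates 1, 2 and 3, while Oca2 had 337, 142 and 322 CPM. Replicate 2 was the high one for Pmel and the low one for Oca2.

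Old-OSK against Old-Control sets the vector with the 3 reprogramming factors against the control vector. M stood in the names of 1 of the 4 Old-OSK libraries and 2 of the 3 Old-Control libraries. None of the 10 genes was called, against 0.728% of all genes (edgeR). At an unadjusted p under 0.05, 4 of the 10 passed, all lower: Tyr, Oca2, Slc24a5 and Gpr143, against 13% of all genes that passed lower and 26.3% in either direction. DESeq2 called 1 of the 10, Slc24a5 (-0.60, adjusted p = 0.0412), and 11.6% of all genes. The values pointed both ways, above 0 for 6 genes and below 0 for 4, with a median of 0.14.

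Among the enzymes, Tyr had 344, 257 and 416 CPM in Old-Control and 208, 258, 295 and 231 CPM in Old-OSK. The groups overlapped through Old-Control replicate 2. The difference was -0.45 (SE 0.15, adjusted p = 0.0981, edgeR). Tyrp1 had 210.1, 594 and 417 CPM in Old-Control and 453, 698, 602 and 555 CPM in Old-OSK, a difference of 0.50 (SE 0.28, adjusted p = 0.262, edgeR). Its Old-OSK libraries were all above 2 of the 3 Old-Control libraries. Dct had 1427, 2505 and 1990 CPM in Old-Control and 2112, 2186, 2174 and 2713 CPM in Old-OSK, a difference of 0.22 (SE 0.23, adjusted p = 0.609, edgeR).

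Pmel had 229, 419.6, 374 and 242 CPM in Old-OSK against the Old-Control values above, a difference of 0.73 (SE 0.36, adjusted p = 0.206, edgeR). Mlana had 56.6, 174 and 96.5 CPM in Old-Control and 123 to 160.0 CPM in Old-OSK, a difference of 0.41 (adjusted p = 0.488, edgeR). In both genes Old-Control replicate 1 was the lowest library of all 18.

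Oca2 had 196, 142, 156 and 191 CPM in Old-OSK, all below Old-Control replicates 1 and 3 and above replicate 2, which the lowest of them nearly equals. The difference was -0.64 (SE 0.25, adjusted p = 0.126, edgeR). Slc24a5 had 186, 103 and 206 CPM in Old-Control and 104, 98.5, 106 and 125 CPM in Old-OSK, a difference of -0.60 (SE 0.19, adjusted p = 0.0850, edgeR). Gpr143 had 72.5, 29.1 and 91.2 CPM in Old-Control and 38.9, 35.0, 43.9 and 39.0 CPM in Old-OSK, a difference of -0.71 (SE 0.29, adjusted p = 0.138, edgeR). For these genes Old-Control replicate 2 lay within or below the range of the Old-OSK libraries. Slc45a2 had 46.1, 19.2 and 35.5 CPM in Old-Control and 29.1, 50.3, 37.9 and 22.5 CPM in Old-OSK, a difference of 0.06 (95% interval -0.51 to 0.62). Rab38 had 15.4, 24.0 and 19.8 CPM in Old-Control and 31.9, 26.9, 31.7 and 21.9 CPM in Old-OSK, a difference of 0.51 (adjusted p = 0.314, edgeR).

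Of the single libraries, Old-Control replicate 2 moved the calls of the 10 genes most in this comparison. Without it 6 of the 10 genes were called, in both directions: Tyr (-0.65, adjusted p = 0.00908), Oca2 (-0.97, adjusted p = 0.00823), Slc24a5 (-0.88, adjusted p = 0.00450) and Gpr143 (-1.09, adjusted p = 0.00725) were lower, and Tyrp1 (0.84, adjusted p = 0.0461) and Pmel (1.25, adjusted p = 0.0268) were higher (edgeR). The share of all genes called rose to 17.9% in that fit. Old-Control was then 2 libraries, and the choice to look at that fit by itself was made with the values known. Replicate 2 had 22965 CPM over the RPE markers and 20560 over the rod markers, against 61223 and 71549 over the RPE markers in the other two. Scaled by the RPE markers, with all libraries in, 92.1% of all genes lay above 0, the values of Tyr (0.37), Oca2 (0.26), Slc24a5 (0.26) and Gpr143 (0.25) lay above 0 and none of the 10 was called. In Old-OSK against Old-Control 11 of 12 RPE markers passed an unadjusted p under 0.05, all lower, and 0 were called, with a median of -1.06 (edgeR).

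Old-OSK was also set against Young, the comparison of treated aged RPE with the young state. Old and Old-OSK are both compared with the same Young libraries, so their results are not independent. Of the 10 genes 7 fell and none rose, against 46.4% of all genes called, 21.4% lower (edgeR). The median was -0.73 against 0.057 over all genes, and for 4 genes, Tyr, Oca2, Slc24a5 and Gpr143, every Old-OSK library lay below every Young library, as did 15.6% of all genes.

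Tyr fell by 1.27 on the log2 scale (SE 0.13, adjusted p = 8.78e-06, edgeR) to 41.5% of the Young level. Oca2 fell by 1.16 (SE 0.21, adjusted p = 0.000632) and Slc24a5 by 1.11 (SE 0.16, adjusted p = 0.000110), to 44.8% and 46.5% of Young (edgeR). Pmel fell by 1.04 (SE 0.30, adjusted p = 0.0102), Gpr143 by 0.83 (SE 0.25, adjusted p = 0.0116) and Dct by 0.63 (SE 0.19, adjusted p = 0.0149) (edgeR). These 6 were called in all 11 fits that left out 1 library. Tyrp1 fell by 0.60 (SE 0.23, adjusted p = 0.0421, edgeR) and was called in 3 of those 11, with an adjusted p of 0.1025 without Old-OSK replicate 1. Slc45a2 (-0.43, adjusted p = 0.126), Mlana (-0.25, adjusted p = 0.485) and Rab38 (0.33, adjusted p = 0.288) did not pass (edgeR).

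These falls are relative to the whole library. Here 11 of 12 RPE markers were called lower, with a median of -1.40, which was a larger fall than that of any of the 10 pigment genes. Scaling by those markers moved the median of all genes by 1.25, so that 97.8% of all genes lay above 0 and 85.7% were called higher. Under it all 10 genes lay above 0 too, from 0.02 for Tyr to 1.52 for Rab38, and 3 were called higher: Rab38, Slc45a2 (0.92) and Gpr143 (0.44) (edgeR). A change of sign under that scaling follows from the shift for any gene that fell by less than it. Tyr, which fell by 1.27, slightly more than this median shift, ended near 0. The rod markers moved as well, with 11 of 12 called higher. With the rod marker level as a term, Tyr (-1.09), Oca2 (-0.93), Pmel (-1.37), Slc24a5 (-0.95) and Dct (-0.82) were called lower (edgeR). That fit called 27.7% of all genes.

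The 10 genes did not vary as one block from library to library. The mean of its group was subtracted from each library's log2 CPM, and the remaining deviations were correlated over the 18 libraries. Tyr, Oca2, Slc45a2, Slc24a5 and Gpr143 (the Tyr set) went together, with Pearson r of 0.47 to 0.94 over their 10 pairs. Tyrp1, Dct, Pmel, Mlana and Rab38 (the Tyrp1 set) also went together, with r of 0.65 to 0.94 over 10 pairs. All 25 pairs between the sets were negative, from -0.84 to -0.19. With the group means left in, 11 of these 25 pairs were negative (-0.66 to 0.57, median 0.14), so the opposition describes libraries within groups. Spearman's rho ran from 0.27 to 0.87, from 0.60 to 0.93 and from -0.83 to -0.02 for the same pairs. The sets were drawn after the values were seen and all 45 relations share the libraries and their scaling, so these are descriptions with no test.

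**Figure D3:**
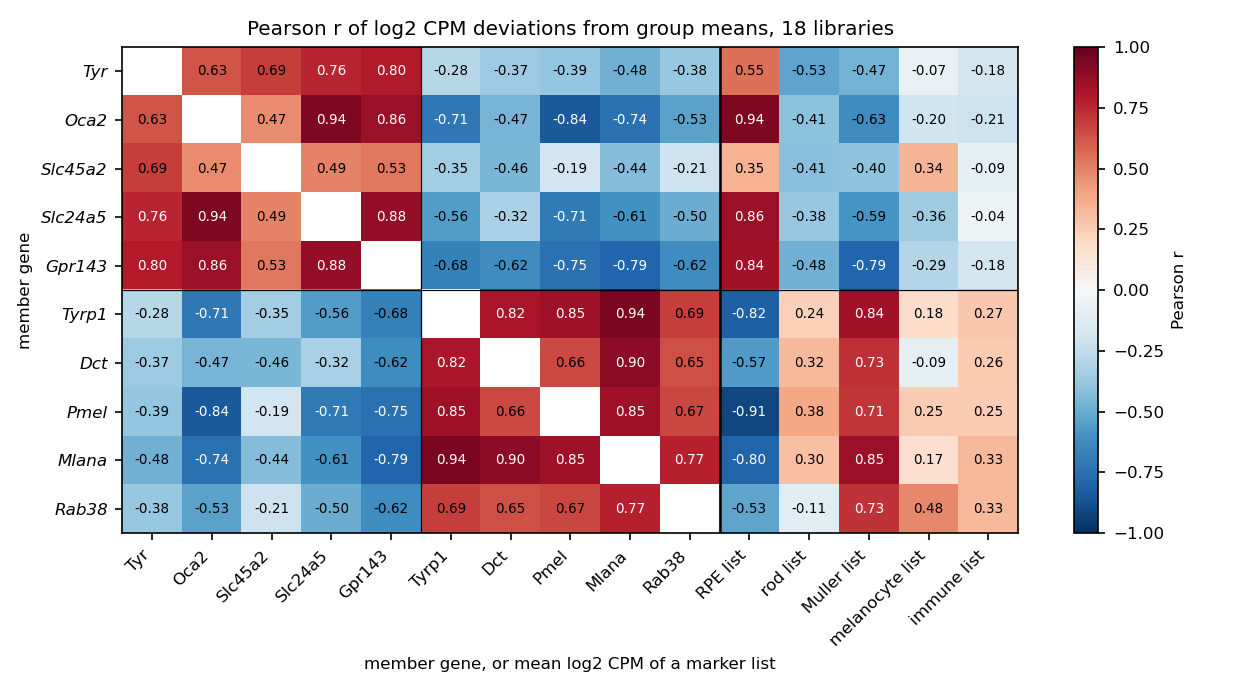
Pearson r (colour and printed number) of log2 CPM deviations from group means over 18 libraries, for each pair of genes and for each gene with the mean of a marker list (right of the thick line). The blocks within the Tyr set and within the Tyrp1 set are positive (0.47 to 0.94 and 0.65 to 0.94) and the block between them is negative (-0.84 to -0.19).

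The pattern held in the 12 libraries without M in their name, where r was 0.35 to 0.90 within the Tyr set, 0.57 to 0.93 within the Tyrp1 set and -0.87 to -0.12 between them. Old-Control replicate 2 and Old-OSK replicate 2 had the RPE marker levels farthest from their group means. Without them the pairs within the sets stayed positive (0.25 to 0.84 and 0.62 to 0.92), and 23 of 25 pairs between the sets were negative (-0.73 to 0.06).

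Single genes were then set against the RPE markers. The share of all genes that would pass is not given here, so the number that passed is no result about pigment genes. Outside the 10, Otx2 had r = 0.94 and Trpm1 r = -0.71 with the same markers. The sets were drawn from these same deviations, so a split of signs by set is not a separate result. Against the mean log2 CPM of the 12 markers, deviations of Oca2 had r = 0.94 (rho = 0.89, n = 18), with a permutation p of 1e-04 within groups and 0.00043 after adjustment over the 10 genes. Slc24a5 had r = 0.86 (rho = 0.78, adjusted permutation p = 0.0059) and Gpr143 r = 0.84 (rho = 0.78, adjusted permutation p = 0.0047). Tyr (r = 0.55, rho = 0.41, adjusted permutation p = 0.16) and Slc45a2 (r = 0.35, rho = 0.12, adjusted permutation p = 0.42) did not pass. In the Tyrp1 set all 5 were negative: Pmel r = -0.91 (rho = -0.96, adjusted permutation p = 1e-04, which rests on the smallest p that 100000 draws can give), Tyrp1 -0.82 (rho = -0.82, adjusted permutation p = 0.0043), Mlana -0.80 (rho = -0.80, adjusted permutation p = 0.00043), Dct -0.57 (rho = -0.57, adjusted permutation p = 0.044) and Rab38 -0.53 (rho = -0.60, adjusted permutation p = 0.014). Pmel was thus higher in the libraries of a group that had less RPE marker RNA. Without the 2 libraries named above r was 0.88 for Oca2, 0.70 for Slc24a5, 0.68 for Gpr143, 0.36 for Tyr, 0.29 for Slc45a2, -0.89 for Pmel, -0.71 for Tyrp1, -0.79 for Mlana, -0.58 for Dct and -0.68 for Rab38. In the 12 libraries without M, r was 0.88 for Oca2, 0.77 for Slc24a5, 0.83 for Gpr143, 0.27 for Tyr, -0.064 for Slc45a2, -0.89 for Pmel, -0.84 for Tyrp1, -0.83 for Mlana, -0.36 for Dct and -0.37 for Rab38.

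Markers of other cells moved with the sets too. A list of 7 Müller glia markers had r of -0.79 to -0.40 with the Tyr set and 0.71 to 0.85 with the Tyrp1 set, and it summed to 2307 to 4742 CPM over the 18 libraries. Glul made up much of that sum, at 1733 to 2412 CPM, so the sum does not show the level of the other markers. The rod markers had r of -0.53 to -0.38 with the Tyr set and -0.11 to 0.38 with the Tyrp1 set. The melanocyte markers had -0.36 to 0.34 and -0.09 to 0.48. Within that last list Sox10 followed the RPE markers, with r = 0.94 of deviations. The part of other cells in the division of the genes was not tested.

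Ratios of raw counts within a library need no scaling between libraries. Reads of Dct per read of Oca2 were 4.24, 17.7 and 6.18 in the Old-Control libraries, 8.81, 7.35, 7.70 and 14.0 in Old, and 10.8, 15.4, 13.9 and 14.2 in Old-OSK. They ran from 5.78 to 14.6 in Young. Old-Control replicate 2 and Old replicate 4 had the highest ratios of their groups. Old-Control replicate 2 lay above every Old-OSK library, and Old replicate 4 lay within the ranges of both Old-OSK and Young. Reads of Tyrp1 per read of Tyr were 2.18, 2.7, 2.04 and 2.40 in Old-OSK and 0.61, 2.31 and 1.00 in Old-Control. They were 1.59, 1.15, 1.33 and 2.13 in Old and 0.97 to 1.93 in Young, so all Old-OSK libraries lay above all Young ones for this ratio. Of 5 ratios computed it was the only one that separated those groups. Tyr by itself also lay lower in every Old-OSK library than in every Young one. How many other gene pairs would separate the groups is not given here, so this is a description. Reads of Dct per read of Tyr were 7.37 to 11.7 in Old-OSK and 3.94 to 8.67 in Young, those of Pmel per read of Tyr 1.04 to 1.62 and 0.53 to 1.73, and those of Pmel per read of Oca2 1.17 to 2.96 and 0.76 to 2.91.

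**Figure D4:**
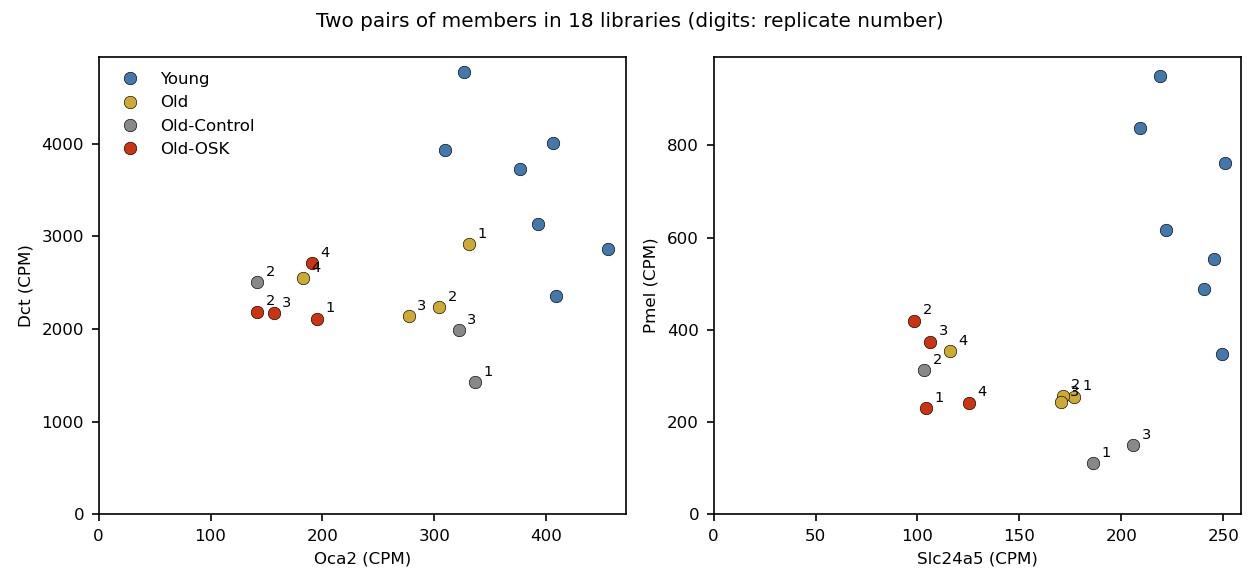
CPM of Dct against Oca2 (left) and of Pmel against Slc24a5 (right) in the 18 libraries, coloured by group, with replicate numbers for the aged groups; axes start at 0. Old replicate 4 and Old-Control replicate 2 lie to the left of the rest of their groups, near the Old-OSK libraries. Young lies to the right of all aged libraries for Slc24a5, and overlaps Old and Old-Control for Oca2.

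A list of 79 further pigmentation and melanosome genes, of which 78 were tested, was examined in the same fits. In Old against Young 1 rose and 3 fell, or 5.13%, which is fewer than the 9.56% of all genes called. Of the 78, 56 (71.8%) lay below 0, against 50.7% of all genes (median -0.13). Ednrb, the endothelin receptor that is also a melanocyte marker, went from 34.8 to 14.9 CPM (-1.22, SE 0.21, adjusted p = 0.00347, edgeR). Adam10, a sheddase that can cut Pmel, fell by 0.37 (adjusted p = 0.0146) and Chm, a Rab escort protein, by 0.39 (adjusted p = 0.0339) (edgeR). Mreg, melanoregulin, a melanosome transport factor, rose by 1.38 (SE 0.39, adjusted p = 0.0385), from 5.86 to 15.2 CPM (edgeR). That Old mean rests largely on Old replicate 4, the library low in RPE markers, which had 33.95 CPM. The other Old libraries had 8.42 to 9.46 CPM, only just above the highest Young library. A fit without Old replicate 4 is not given for Mreg. Of the lists with no call, the lowest p belonged to Usf2 (-0.22, adjusted p = 0.100) among 11 transcription factors, Slc24a4 (1.87, adjusted p = 0.110, at 1.66 CPM in Old) among 12 ion and metal transporters and Ap3s1 (-0.37, adjusted p = 0.117) among 22 genes of the BLOC, HPS and adaptor complexes (edgeR).

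Mitf had a mean of 115 ± 9.88 CPM in Young (SD, n = 7), 94.0 ± 15.9 in Old (n = 4), 99.0 in Old-Control and 69.1 in Old-OSK. Its values by library were 90.1, 95.6, 114 and 75.9 CPM in Old, 119, 64.9 and 113 in Old-Control, and 66.8, 64.2, 77.4 and 68.0 in Old-OSK. Old-OSK lay below every Young library (102 to 127 CPM) and overlapped Old-Control only through replicate 2 of the latter. The differences were -0.30 in Old against Young (adjusted p = 0.174), -0.52 in Old-OSK against Old-Control (adjusted p = 0.0924), 0.07 in Old-Control against Old (adjusted p = 0.977) and -0.74 in Old-OSK against Young (adjusted p = 0.000897) (edgeR). Mitf followed the RPE markers with r = 0.82 of deviations. Sox10 was at -0.27, -0.80, 0.00 and -1.07 in the same order, and it passed in Old-OSK against Young (adjusted p = 0.0104, edgeR). Pax3, near the floor, passed in none, with values from -1.02 to -0.01.

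In Old-OSK against Old-Control none of the 78 was called. At an unadjusted p under 0.05, 22 passed (8 higher, 14 lower), or 28.2%, against 26.3% of all genes (edgeR). DESeq2 called 7 of the 78, and 11.6% of all genes. The lowest p in each list belonged to Kif13a, a kinesin that carries cargo to melanosomes (-0.63, adjusted p = 0.0753), Ostm1 (-0.70, adjusted p = 0.0886), Hps3 (-0.63, adjusted p = 0.0901), Mitf, Adam17, a second sheddase (0.56, adjusted p = 0.0966) and Prkaca, a catalytic subunit of protein kinase A (-0.50, adjusted p = 0.100) (edgeR). With the replicate number as a block, Kit (1.25, adjusted p = 0.0471), the receptor tyrosine kinase of melanocytes, and Rab11a (0.79, adjusted p = 0.0499), a recycling GTPase, were called higher (edgeR). Both were picked out after that fit was seen, and it called 3.02% of all genes. In Old-Control against Old none was called by edgeR or DESeq2, and 1 passed an unadjusted p under 0.05: Tpcn2, a cation channel of melanosomes (-0.43, adjusted p = 0.8996). Of all genes 3.74% passed that unadjusted threshold (edgeR). The lowest p of the other lists belonged to Bloc1s4 (0.22), Adam10 (-0.18), Mlph (-0.66), Kit (-0.59) and Usf2 (0.13).

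In Old-OSK against Young 6 of the 78 rose and 29 fell, or 44.9%, close to the 46.4% of all genes called (25.1% higher, 21.4% lower). With the replicate block 3 rose and 27 fell. The counts by list below are to be read against those shares. Scaling by total counts moved this split to 13 and 21, and over all genes it moved the share of calls that were higher from 54.0% to 71.8%. Of the transcription factors 3 of 11 fell: Mitf, Otx2 (-1.13, adjusted p = 0.000898), a homeobox factor of RPE fate, and Sox9 (-0.60, adjusted p = 0.0245) (edgeR). Of 11 signalling genes tested 3 fell: Ednrb (-1.01, adjusted p = 0.00145), its ligand Edn3 (-1.22, adjusted p = 0.00167) and Prkaca (-0.46, adjusted p = 0.0152) (edgeR). Of 8 genes of Pmel processing and sorting 3 fell: Adam10 (-0.46), the convertase Furin (-0.60) and the tetraspanin Cd63 (-0.37). Of 15 Rab and motor genes 9 fell and 3 rose, with Chm (-0.64, adjusted p = 0.000341), Kif13a (-0.75, adjusted p = 0.00103) and the myosin Myo7a (-1.13, adjusted p = 0.00105) lower and Mreg (2.15, adjusted p = 0.000557) higher (edgeR). Of 12 ion and metal transporters 3 fell and 1 rose: Ostm1 (-0.79), the copper pump Atp7a (-0.94) and the proton pump subunit Atp6v0a1 (-0.67) fell, and Slc24a4 (2.04, at 1.83 CPM) rose. Of 22 BLOC, HPS and adaptor genes 8 fell and 2 rose, with the lowest p for Hps4 (-0.96), Ap3d1 (-0.41), Hps3 (-0.65) and Bloc1s5 (-0.34), all lower.

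The genes whose level over the 18 libraries was most like the average profile of the 10 were, among 10223 genes ranked, Ankrd44 (r = 0.96), Fbn1 (0.94), Galc (0.94), Amotl1 (0.93), C1qtnf6 (0.93), B3glct (0.93), Tspan18 (0.93) and Glg1 (0.92). These r values describe likeness over libraries that share groups and scaling, and no test was made of them.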

How the data were processed

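RNA from mouse RPE was made into cDNA with a SMART-Seq v4 kit and into libraries with Nextera XT, per the labels' protocols, a combination that does not mark strand. The submitters' processing notes name STAR 2.7.1a and featureCounts 1.6.2 and, among their builds, GRCm38; the annotation and the strand setting are not given in the sources used here. The deposited values are raw read counts per gene and were used as such; 0 columns were left unmapped. In R 4.3.3, edgeR 4.0.16 filtered genes (filterByExpr, minimum count 10, minimum total 15), scaled libraries by TMM, fitted 4 group means over all 18 libraries with the quasi-likelihood test and adjusted p by Benjamini-Hochberg over 15944 genes; called means an adjusted p under 0.05. Each of 4 comparisons was repeated under other scalings, filters, DESeq2 1.42.0, M as a term, a replicate block and without each library. Simulated data with known changes were used to test the scripts: of 100 genes changed by a log2 fold of 1, 50% were recovered in Old against Young and 43% in Old-OSK against Old-Control (15944 genes each).

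The members and lists were chosen with earlier results of these data known. Of the pathway lists, per comparison, up to 4 called genes per list with the lowest p are named, or 1 gene with the lowest p where none was called; Mitf, Sox10 and Pax3 are always given. Same-numbered Old-OSK and Old-Control libraries had correlated deviations (r = 0.16, 0.50 and 0.19), all over 0.1, which counts as pairing here from the data alone, since no label says so; in the other comparisons at least 1 pair was under 0.1. Relations with the RPE markers used two-sided permutation within groups (100000 draws). No libraries of a group agreed within sampling noise (r 0.93 to 0.98). Positions and lengths come from GENCODE M21, promoters from RefSeq. Protein sequences were not used here.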

Additional observations from a re-analysis of the deposited data

Results flagged for a closer look

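Of 30 sets of 4 to 7 libraries examined (each of the 10 genes in Young, Old and Old-OSK), 3 held a library that stood apart from the others, where chance gives about 1 in 20. Pmel in Old replicate 4 was at 354.2 CPM, with the other Old libraries at 242.9 to 257.1 CPM. Slc24a5 in the same library was at 115.8 CPM, with the others at 170.5 to 177.0 CPM. This library also had the lowest RPE marker sum of its group. Dct in Old-OSK replicate 4 was at 2713 CPM, with the others at 2112 to 2186 CPM.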

How the results depend on the processing

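Limits: the groups are small, Old-Control most of all, and a group difference in RPE marker RNA cannot be told apart from the treatment. Counts of the 10 genes called moved over 1.5 times in these fits. Old against Young (4): 0 scaled by RPE markers, 0 with the replicate block, 2 with M as a term, 2 with the rod marker level as a term, 1 to 4 without each library. Old-OSK against Old-Control (0): 1 with DESeq2, 6 without both Old replicate 4 and Old-Control replicate 2, 0 to 6 without each library (1 without Old-OSK replicate 4). Old-OSK against Young (7): 3 scaled by RPE markers, all higher, and 6 to 8 without each library. Old-Control against Old stayed at 0 in every fit run. Of the pathway list, Old against Young (4) gave 2 with M as a term and 0 with the block, and Old-OSK against Old-Control (0) gave 7 with DESeq2 and 2 with the block; in Old-OSK against Young the block gave 30 of the pathway list in place of 35, with 3 in place of 6 higher. Only Old-OSK and Old-Control numbers met the pairing check, which cannot show pairing, and in every comparison the libraries are known to share a number only. The block took the calls over all genes in Old against Young to 0.

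Log2 values of single genes that changed sign follow. Scaled by RPE markers they were, in Old-OSK against Old-Control, Tyr 0.37, Oca2 0.26, Slc24a5 0.26 and Gpr143 0.25; in Old-Control against Old, Tyrp1 0.11, Dct 0.016, Mlana 0.15 and Rab38 0.085; in Old-OSK against Young, Tyr 0.017, Tyrp1 0.67, Dct 0.58, Pmel 0.23, Oca2 0.074, Slc45a2 0.92, Slc24a5 0.14, Mlana 0.96 and Gpr143 0.44. That scaling moved the median of all genes by 0.38 in Old against Young, 0.66 in Old-OSK against Old-Control and 0.20 in Old-Control against Old. In Old against Young, Rab38 was -0.12 with M as a term, -0.18 with the replicate block, -0.22 in the same libraries with no block, -0.11 without both low-RPE libraries and -0.13 to 0.19 without each library. In Old-OSK against Old-Control, Slc45a2 was -0.064 with M as a term, -0.26 without both low-RPE libraries and -0.26 to 0.35 without each library. In Old-Control against Old, Slc45a2 was -0.024 by total counts, -0.0015 with no filter, -0.20 with the block, -0.12 without it and -0.28 to 0.30 without each library; Tyr was -0.083 with the block, -0.056 without it and -0.13 to 0.21 without each library; Slc24a5 was -0.14 with the block, -0.077 without it and -0.13 to 0.31 without each library; Rab38 was 0.088 with M as a term; Oca2 was 0.11 without both low-RPE libraries and -0.24 to 0.27 without each library; Tyrp1 was -0.66 to 0.021, Mlana -0.78 to 0.035 and Gpr143 -0.00055 to 0.69 without each library. Apart from the RPE scaling, the cause was not tested. Over all genes in Old-OSK against Old-Control the share of calls that were higher went from 56.0% to 66.1% by total counts and 68.8% by DESeq2's size factors. DESeq2 called 15.4% of all genes in Old against Young and 11.6% in Old-OSK against Old-Control. Slc24a5 reads overlapping Myef2 and the unknown strand setting limit that gene.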

Other observations

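Over the 18 libraries, the gene most like the average profile of Tyr, Oca2, Slc45a2, Slc24a5 and Gpr143 was Col8a1, a short-chain collagen (r = 0.99), and Parva was also high on that list (0.98). The gene most like the average profile of Tyrp1, Dct, Pmel, Mlana and Rab38 was Slc6a15, an amino acid transporter (0.98), followed by Npr3 (0.96) and Gja1, connexin 43 (0.96). Trpm1, a cation channel, was also on the list for the Tyrp1 set (0.95). These lists were made after the values were seen, rank 10223 genes each and carry no test.

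Both neighbours whose exons overlap Pmel or Slc24a5 on the other strand and that were called in Old against Young were lower there. Cdk2 went from 39.7 to 20.5 CPM (-0.95, adjusted p = 0.00438, edgeR) and Myef2 from 73.8 to 55.3 CPM. Dgka, the other neighbour of Pmel, had a difference of 1.14 (adjusted p = 0.0573, edgeR).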
